A study of Mus musculus with 16 samples.

Results

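Citric acid cycle and pyruvate dehydrogenase transcripts were followed through 9 of the 32989 genes listed in each table, taken by symbol with 1 row for each symbol: citrate synthase (Cs), the catalytic subunit of NAD-dependent isocitrate dehydrogenase (Idh3a), the E1 and E2 components of oxoglutarate dehydrogenase (Ogdh and Dlst), the shared alpha and the GTP-specific beta subunit of succinyl-CoA ligase (Suclg1 and Suclg2), fumarate hydratase (Fh1), mitochondrial malate dehydrogenase (Mdh2) and the E1 alpha subunit of pyruvate dehydrogenase (Pdha1).

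The citric acid cycle oxidises acetyl groups in the mitochondrial matrix and passes the electrons to the respiratory chain, and pyruvate dehydrogenase supplies it with acetyl-CoA from pyruvate. The cycle is used in liver for the disposal of amino acid and fat carbon and for making glucose precursors, and in the kidney it carries the ATP supply of the tubules, which reabsorb salt and solutes. Pyruvate dehydrogenase is switched off by kinases and on by phosphatases, so its activity is not read from its RNA alone.

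RNA of the liver and the kidney of 8 male C57BL/6J mice was sequenced after poly(A) selection, which gave 16 libraries. The mice, 4 LD and 4 ADV, had lived for 85 weeks either on a regular light-dark cycle (LD) or on one advanced by 8 h every 4 days (ADV), and were 97 weeks old. Strain and sex did not differ between the groups, and each mouse gave both organs. Organs were collected in a single window of hours after the last light-on. A change in level therefore cannot be told apart from a shift of daily phase. These were whole tissues, so less RNA per cell and fewer cells of a type cannot be told apart. The library totals were 22.7M to 26.3M fragments in liver and 17.1M to 19.7M in kidney (M, mega), and between 566 and 12202 fragments stood behind each member's value. Values are FPKM, fragments per kilobase of exon scaled to the library total, so levels of different genes can be compared per length. The markers of each organ followed the labels. The 8 hepatocyte markers summed to 60272 to 73729 FPKM in the livers and to 743 to 1100 in the kidneys, and the 8 proximal tubule markers to 20096 to 46648 in the kidneys and to at most 0.128 in the livers. The kidney of ADV mouse A115 stood apart: mitochondrially encoded transcripts took 30.9% of its fragments against 8.63% to 16.5% in the other 7 kidneys, and 55.4% of the 14452 genes tested lay below all other kidneys. The main kidney results are therefore also given without A115. The other kidneys differed by condition in their mitochondrial share. It was 9.81%, 11.98% and 8.63% in the ADV kidneys A75, A91 and A94, and 14.6% to 16.5% in the LD kidneys. These transcripts count in the library totals that scale FPKM, so kidney differences without A115 can include a shift from this share. Sources name 2 sequencing providers without saying which libraries each ran, so a provider effect cannot be told apart from organ or condition.

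The genes lie on 8 chromosomes of mm10. Cs is at chr10:128337832-128362479 (+ strand, 2817 exonic bases), Idh3a at chr9:54586511-54604662 (+ strand, 2393 exonic bases) and Ogdh at chr11:6291597-6359094 (+ strand, 6636 exonic bases). Dlst is at chr12:85110833-85134091 (+ strand, 2752 exonic bases), Suclg1 at chr6:73248505-73276907 (+ strand, 1383 exonic bases) and Suclg2 at chr6:95473009-95718846 (- strand, 3402 exonic bases). Fh1 is at chr1:175601378-175625635 (- strand, 1622 exonic bases), Mdh2 at chr5:135778649-135790386 (+ strand, 1273 exonic bases) and Pdha1 at chrX:160122219-160138430 (- strand, 2844 exonic bases). RefSeq windows of 300 bases around annotated transcription start sites (250 before and 50 after, GRCm38.p6) were available for 8 of the 9 genes. The following motifs were searched on both strands: the NRF1 motif CGCATGCG, the oestrogen-related receptor motif TCAAGGTCA, the GABP motif CCGGAAGT, the E-box CACGTG and the D-box TTATGTAA. The NRF1 motif was found in 1 of the 8 genes, Ogdh, against 1.86% of 32817 windows of all genes, and the GABP motif in 1, Dlst, against 3.89%. The E-box was found in 1 of the 8, again Ogdh, against 7.15% of all windows. The oestrogen-related receptor motif (0.424% of all windows) and the D-box (0.935%) were in 0 of the 8. Ogdh has 6 annotated start sites, which gives it more windows than the others with 1 each, and the motifs lie in windows of the later start sites. The printed Ogdh stretch lies before the fifth of its start sites, inside the gene as the deposited coordinates place it. In Dlst the motif starts at the start site itself, on the minus strand. The NRF1 and E-box matches of Ogdh did not overlap each other, and a match of letters does not show binding. The 150 bases before the start site are printed for Ogdh, which holds the matches (in capitals, the E-box first and the NRF1 motif near the end), and for Mdh2 and Fh1, the members with the lowest and the highest level relative to LD in the A115 kidney, which hold none of the 5 motifs.
Ogdh, chr11:6292408-6292557, + strand: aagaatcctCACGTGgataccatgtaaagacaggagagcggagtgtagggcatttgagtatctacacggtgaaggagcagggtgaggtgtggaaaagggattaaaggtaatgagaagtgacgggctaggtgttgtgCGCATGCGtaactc
Mdh2, chr5:135778499-135778648, + strand: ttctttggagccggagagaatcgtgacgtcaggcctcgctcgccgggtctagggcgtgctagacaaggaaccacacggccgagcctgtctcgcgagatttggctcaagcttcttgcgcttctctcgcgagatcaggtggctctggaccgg
Fh1, chr1:175625636-175625785, - strand: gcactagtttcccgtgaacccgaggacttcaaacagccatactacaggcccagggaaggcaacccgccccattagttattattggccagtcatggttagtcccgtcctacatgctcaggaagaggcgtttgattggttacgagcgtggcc

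In the LD mice the order of the 9 genes differed between the organs. In kidney, Mdh2 had the highest level (mean 243 ± 19.4 FPKM, SD, n = 4), followed by Pdha1 (201 ± 9.46) and Suclg1 (198 ± 12.4), whose libraries overlapped. Suclg2 (123 ± 2.45) came next and did not overlap with Dlst (113 ± 4.07), which overlapped with Fh1 (109.7 ± 6.43). Ogdh (83.6 ± 1.31), Cs (79.8 ± 6.21) and Idh3a (75.4 ± 4.69) were lowest, with Cs overlapping both neighbours. In liver, Fh1 (135 ± 21.3 FPKM), Mdh2 (129 ± 6.98) and Suclg1 (119 ± 9.71) led and overlapped as neighbours in that order. Suclg2 (84.9 ± 4.995) stood alone, Dlst (58.9 ± 3.82) and Pdha1 (54.6 ± 3.58) overlapped, and Cs (27.3 ± 1.55), Ogdh (21.8 ± 3.41) and Idh3a (12.6 ± 1.96) were lowest, without overlap between them. By its mean Idh3a was the lowest member in both organs, while Fh1 was first in liver and sixth of the 9 in kidney.

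**Figure D1:**
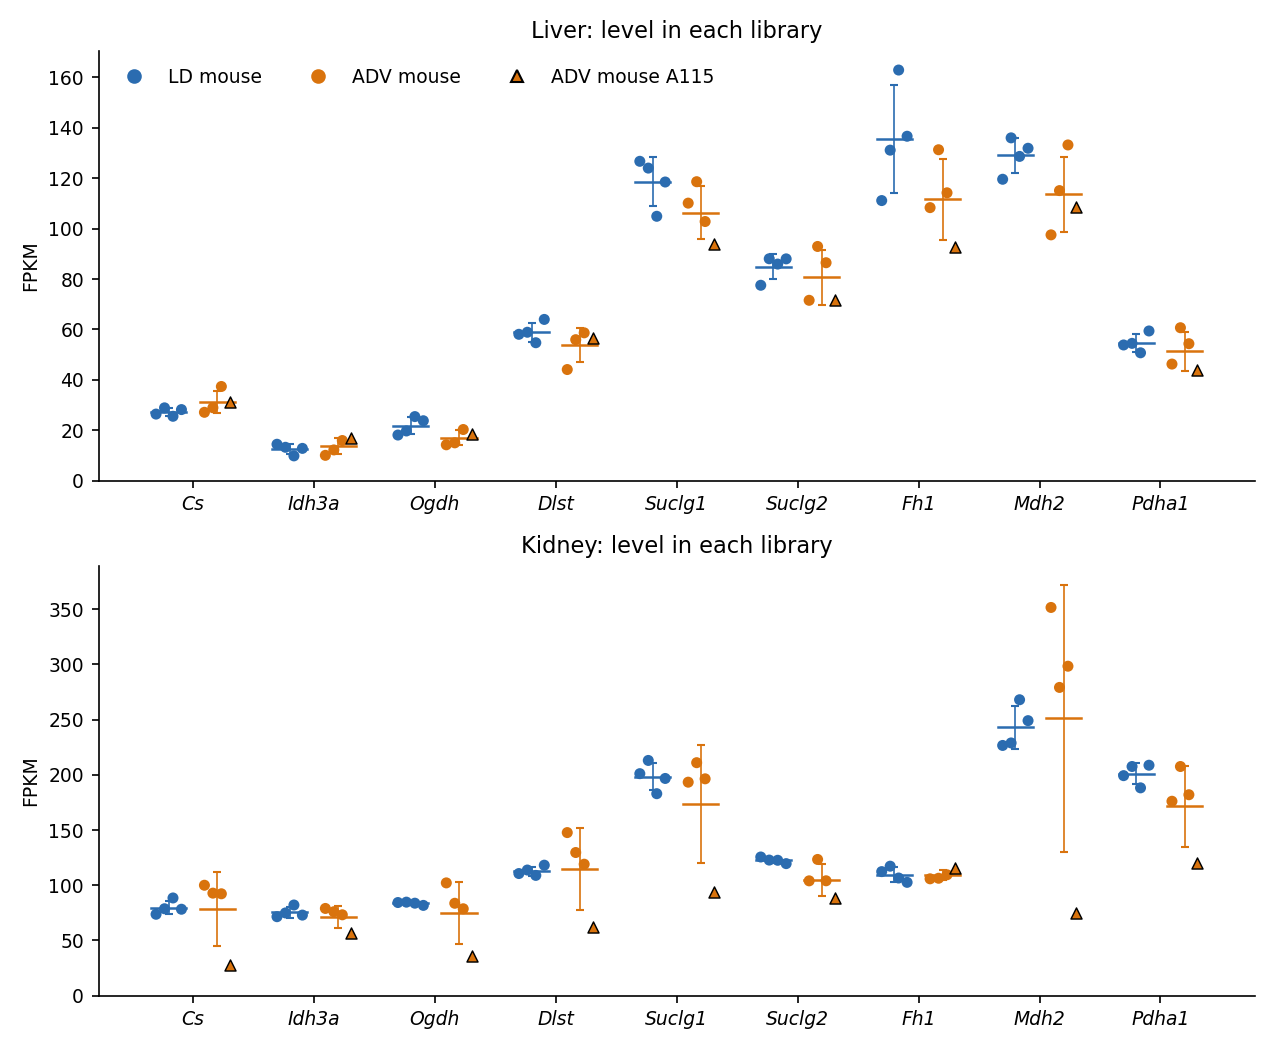
FPKM of each member in every library of liver (top) and kidney (bottom). Blue points are LD mice, orange points ADV mice and the outlined triangle mouse A115; lines are group means and bars SD (n = 4). In kidney the triangle lies below every other point for 8 members, and for Fh1 it lies among them.

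The comparison of ADV with LD asked whether the long jet lag changed these transcripts in the liver. None of the 9 genes passed the test in liver (limma with Benjamini-Hochberg adjustment over 12835 genes), where 1 gene in all, 0.00779%, was called. At an unadjusted p under 0.05, 1 of the 9 and 1512 of all genes were counted. The difference was below 0 for 7 members and above 0 for 2, with a median of -0.14 on the log2(FPKM + 0.1) scale, against 0.096 over all genes tested, of which 34.3% lay below 0. The LD and ADV livers overlapped for all 9 members, while 1.89% of all genes were lower and 6.94% higher in every ADV liver than in every LD liver.

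Ogdh, which starts the oxidation of 2-oxoglutarate, had 18.1, 19.8, 25.5 and 23.8 FPKM in the LD livers (L63, L65, L86 and L104, the order used throughout) and 14.3, 15.1, 20.3 and 18.7 in the ADV livers (A75, A91, A94 and A115). A75 and A91 lay below all LD livers, but the groups overlapped. The difference was -0.35 ± 0.15 (SE) with a 95% interval of -0.69 to -0.00904, and the adjusted p from limma was 0.414. Fh1, which hydrates fumarate to malate, had 111, 131, 163 and 137 FPKM in the LD and 108, 131, 114 and 92.5 in the ADV livers, a difference of -0.28 ± 0.14 (adjusted p from limma 0.461). A75 and A115 lay below every LD liver for Fh1. Cs, which condenses acetyl-CoA with oxaloacetate, had 26.5, 28.9, 25.6 and 28.2 FPKM in LD and 27.2, 29.0, 37.4 and 31.4 in ADV. Here A91, A94 and A115 lay above all LD livers, A91 by little, and the difference was 0.18 ± 0.11 (adjusted p from limma 0.502). Idh3a, the other member above 0, had 14.5, 13.3, 9.88 and 12.9 FPKM in LD and 10.1, 12.2, 15.97 and 16.9 in ADV. Its difference of 0.11 ± 0.18 had an interval from -0.30 to 0.52, and without L86 it was -0.000124, so its sign rested on 1 mouse.

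The differences of the other 5 members all lay below 0. Mdh2 (119.6 to 136 FPKM in LD, 97.5 to 133 in ADV) had a difference of -0.19 ± 0.11, Suclg1 (105 to 127 and 93.8 to 119) of -0.16 ± 0.11 and Dlst (54.8 to 64.0 and 44.1 to 58.7) of -0.14 ± 0.11. Pdha1 (50.8 to 59.4 and 44.0 to 60.7) had -0.10 ± 0.12 and Suclg2 (77.5 to 88.1 and 71.6 to 92.9) -0.0813 ± 0.11. In 7 members, all but Ogdh and Fh1, the SD was larger in the ADV than in the LD livers in FPKM. Exact permutation tests over the 70 assignments of 4 mice gave two-sided p from 0.114 to 0.571, where 0.0286 is the smallest possible. All 10 leukocyte markers and all 8 fibroblast and smooth muscle markers had a difference above 0 in liver, none of them past the test, with summed levels of 12.2 to 16.02 FPKM in LD and 17.1 to 91.4 in ADV, and of 117 to 132 and 161 to 369. The highest sum of both lists was that of A94. Their median differences were 0.79 and 1.70 with all mice. Without A94 they were 0.45, over the 7 leukocyte markers then tested, and 0.94. The 8 hepatocyte markers summed to 60272 to 73729 FPKM in LD and 60423 to 70865 in ADV. Their part in the members' differences was not tested.

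In kidney, too, none of the 9 genes passed the test, and none of all 14452 genes did (0%; 448 at an unadjusted p under 0.05, none of them a member). All 9 differences lay below 0, with a median of -0.18 against -0.024 over all genes. Without A115 the median was 0.015 against 0.197 over all genes, 6 members lay above 0 and again 0 of 9 passed the test, while 18.8% of 14475 genes did, 2336 of them higher and 388 lower in ADV. In this comparison every ADV kidney had a smaller mitochondrial share than every LD kidney. The part of that share in these differences was not tested. With A115 left out and median ratio scaling, which sets all genes near 0 (median 0.0155), the members' median was -0.18 and 6 of the 9 lay below 0. With all 8 mice no member's groups were apart, against 1.83% of genes lower and 0.962% higher in all ADV kidneys. Exact permutation tests gave two-sided p from 0.114 to 1. As in liver, all 10 leukocyte markers (10.3 to 22.7 FPKM summed in LD, 11.2 to 93.95 in ADV) and all 8 fibroblast and smooth muscle markers (65.8 to 114.7 and 91.02 to 243) had a difference above 0, with none past the test with or without A115. The highest leukocyte sum was again that of A94. The 8 proximal tubule markers (28952 to 41973 and 20096 to 46648) had a median difference of -0.23, with none past the test. Without A115 it was -0.0124, with 2 of the 8 called higher in ADV. In that fit 2 of 9 thick ascending limb and distal nephron markers, 1 of 5 glomerulus and 2 of 3 erythroid markers were also called higher. In these lists 0 were called lower. Their part in the members' values was not tested.

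**Figure D2:**
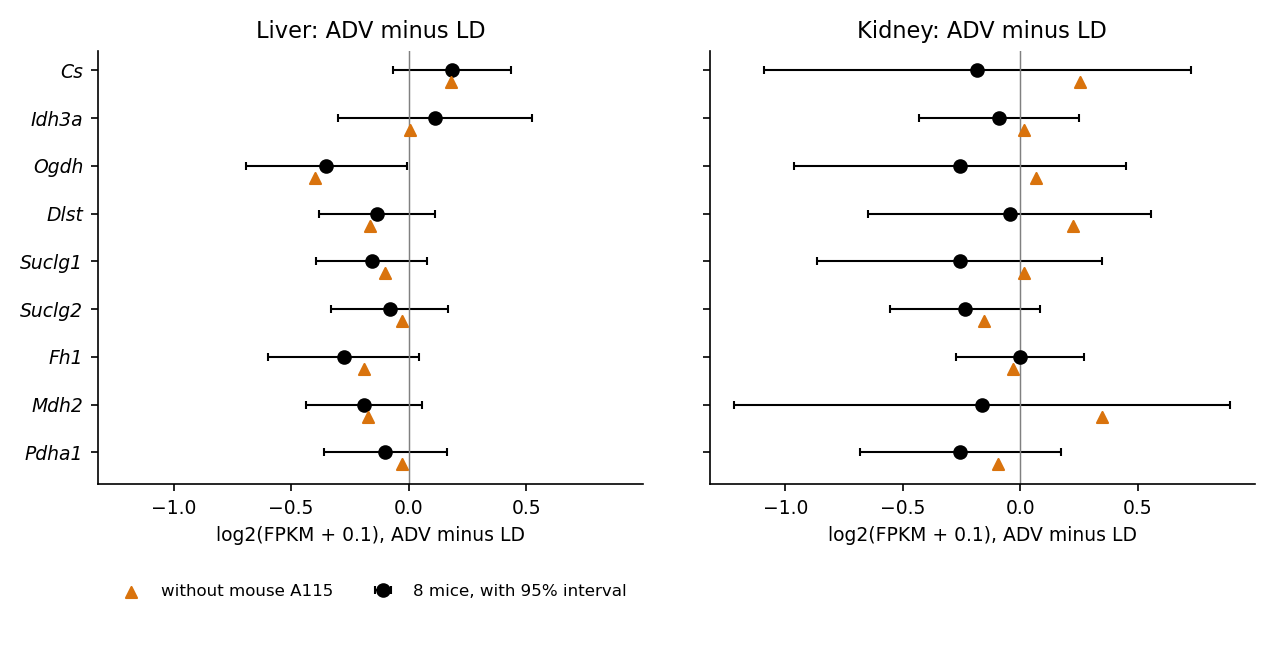
Difference between ADV and LD for each member in liver (left) and kidney (right), on the log2(FPKM + 0.1) scale. Black points are the differences over 8 mice with 95% intervals, and triangles are the values without mouse A115. In kidney the triangles of Cs, Dlst and Mdh2 lie at 0.25, 0.22 and 0.35.

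Mdh2, which closes the cycle by oxidising malate, had 227, 229, 268 and 249.03 FPKM in the LD kidneys and 352, 279, 298 and 75.2 in the ADV kidneys. A75, A91 and A94 lay above all LD kidneys and A115 far below them. The difference was -0.16 ± 0.46 (SE) with a 95% interval from -1.22 to 0.89, and 0.35 without A115. Cs had 73.7, 78.7, 88.5 and 78.3 FPKM in LD and 100.0, 92.8, 92.3 and 28.2 in ADV, the same arrangement, with a difference of -0.18 ± 0.39 and of 0.25 without A115. Dlst, the lipoate-bearing core of oxoglutarate dehydrogenase, had 111, 114, 109 and 118 FPKM in LD and 148, 129.6, 119 and 62.6 in ADV. It too was above all LD kidneys in 3 ADV mice and below them in A115, with a difference of -0.0458 ± 0.26 and of 0.22 without A115. None of these 3 differences passed the test without A115 (adjusted p from limma 0.0674 for Mdh2, 0.0787 for Cs and 0.13 for Dlst). Of all 14475 genes, 2336 were called higher in ADV without that mouse. With median ratio scaling and without A115 the differences of Mdh2, Cs and Dlst were 0.15, 0.0634 and 0.0313, the 3 members above 0 there.

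Suclg2, the GTP-linked ligase subunit, had 126, 123, 123 and 119.6 FPKM in the LD kidneys and 103.98, 123, 104.03 and 88.2 in the ADV kidneys. A75, A94 and A115 lay below all LD kidneys and A91 among them, with a difference of -0.24 ± 0.14 and of -0.16 without A115, or -0.35 with median ratio scaling as well (adjusted p from limma 0.0803). Pdha1, the regulated subunit of pyruvate dehydrogenase, had 199, 208, 188 and 209 FPKM in LD and 176, 208, 182 and 120.4 in ADV. The same 3 ADV mice were below all LD kidneys, and the difference was -0.26 ± 0.19, or -0.0943 without A115 and -0.29 rescaled without it. Ogdh had 84.3, 84.7, 83.7 and 81.8 FPKM in LD, the narrowest group of all (CV 1.57%), and 102, 83.7, 78.7 and 35.5 in ADV. Suclg1 ranged from 183 to 213 FPKM in LD and from 93.99 to 211 in ADV, and Idh3a from 71.5 to 82.1 and from 56.4 to 79.0. Without A115 the differences of Ogdh, Suclg1 and Idh3a were 0.0670, 0.0142 and 0.0147, and with median ratio scaling as well they were -0.12, -0.18 and -0.18. Fh1 had 112, 117, 107 and 103 FPKM in LD and 106, 106, 109 and 116 in ADV, with a difference of -0.00263 ± 0.12 and a 95% interval from -0.27 to 0.27, -0.0312 without A115 and -0.22 rescaled without it. The 4 ADV kidneys lay within the LD range for this gene.

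In the A115 kidney 8 of the 9 members lay below all 7 other kidneys, as did 55.4% of the 14452 genes tested. Relative to the mean of the 4 LD kidneys its levels were 30.9% for Mdh2, 35.3% for Cs, 42.5% for Ogdh, 47.4% for Suclg1 and 55.4% for Dlst. Pdha1 had 59.9%, Suclg2 71.9%, Idh3a 74.8% and Fh1 106%. The median of all genes tested was 69.2%, so 6 members lay under it, and 4 of the 9 members and 36.8% of all genes were under 50%. In the liver of the same mouse the members ranged from 68.3% (Fh1) to 134% (Idh3a). Fh1 was thus the lowest of the 9 in the liver of A115 and the highest in its kidney. Other genes of the cycle were also uneven there: 9 of 11 other cycle enzymes lay below all other kidneys, with Idh2, the NADP-dependent isocitrate dehydrogenase, at 49.99 FPKM (LD mean 268 ± 19.0), while Sucla2, the ATP-specific ligase subunit, was at 192 (LD 112 ± 8.05) and Dld, the E3 component, at 231 (LD 186 ± 13.7). Pcx, which makes oxaloacetate from pyruvate, was at 7.24 FPKM (LD 102 ± 7.75). Beside these values, 6 of 8 proximal tubule markers of A115 were below all other kidneys and the other 2, Kap and Slc5a12, above them. The list summed to 46648 FPKM (28952 to 41973 in LD), of which Kap alone was 45922. Of 9 thick ascending limb and distal nephron markers 6 were below all other kidneys (sum 1325 FPKM, 1972 to 2525 in LD), and of 5 glomerulus markers 3 were below and 2 above them (49.2, 66.06 to 71.3 in LD). The fibroblast and smooth muscle markers summed to 159.9 FPKM in A115 (65.8 to 114.7 in LD), and the leukocyte markers to 18.7 (10.3 to 22.7 in LD, 93.95 in A94). Of the 8 fibroblast and smooth muscle markers 1 was above all other kidneys, Col3a1, a collagen, at 684% of the LD mean. Another 1 was below them, Pdgfrb at 55.8%, and the median of the 8 was 157%. Of the 10 leukocyte markers 3 were below and 0 above all other kidneys. The part of tissue makeup, RNA quality or mitochondrial share was not tested.

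**Figure D3:**
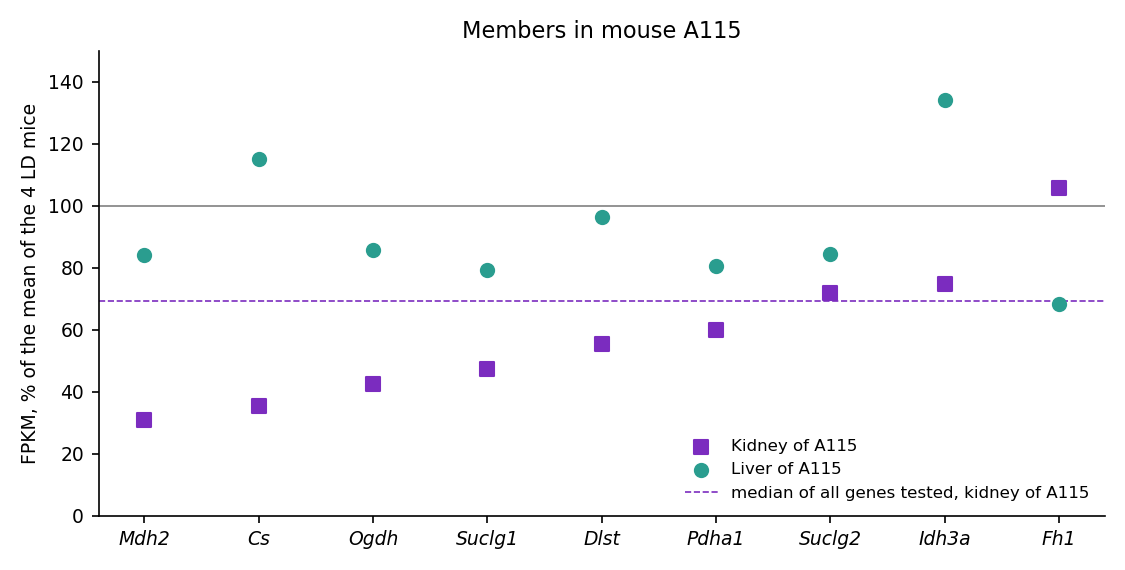
Level of each member in mouse A115 as a percentage of the mean of the 4 LD mice, in kidney (squares) and liver (circles). The solid line marks 100% and the dashed line the median of all genes tested in that kidney, 69.2%. Mdh2 in kidney is lowest at 30.9%, and Fh1 is at 106%.

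The levels of a member in liver and kidney of the same mice were compared next. As deposited, 8 of the 9 genes were called lower in liver than in kidney in the LD mice, where 55.5% of all 14968 genes were lower and 11.1% higher, and 8 of 9 also in the ADV mice, where 51.7% were lower and 11.2% higher. The members' median difference was -0.94 in LD against -0.80 over all genes, and -1.03 against -0.69 in ADV. Each library had been scaled to its own total only. Scaling by the median ratio moved the median of all genes to -0.054 in LD and -0.0051 in ADV and the calls over all genes from 1656 higher and 8310 lower to 3700 and 4519 in LD, and from 1681 and 7736 to 3643 and 4123 in ADV. It left 5 members called in LD, 4 lower and 1 higher in liver, and 4 in ADV, 3 lower and 1 higher. With A115 also left out it was again 5 in LD, where 4943 of 14975 genes were called higher and 5535 lower, but 8 in ADV, 6 lower and 2 higher, where 63.2% of 14975 genes were called, 4448 higher and 5014 lower. Mitochondrial transcripts took 6.29% to 8.18% of the fragments of the LD livers and 14.6% to 16.5% of those of the LD kidneys.

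Of the 9 members, 6 had a difference below 0 on both scales in both conditions, and 3 of these were called lower in liver in each of the 4 cases. Idh3a had 71.5 to 82.1 FPKM in LD kidneys and 9.88 to 14.5 in LD livers, 5.97-fold higher in kidney by group means. Its difference, liver minus kidney, was -2.58 ± 0.17 as deposited (adjusted p from limma 4.05e-09) and -1.77 ± 0.15 with the median ratio (adjusted p 6.53e-08). Ogdh differed by -1.95 ± 0.25 (adjusted p from limma 6.85e-06) and -1.14 ± 0.16 (adjusted p 1.99e-05), with 81.8 to 84.7 FPKM in the LD kidneys and 18.1 to 25.5 in the LD livers. Pdha1 differed by -1.88 ± 0.16 (adjusted p from limma 5.39e-08) and -1.06 ± 0.15 (adjusted p 1.32e-05), with 188 to 209 against 50.8 to 59.4 FPKM. In ADV the deposited and rescaled differences were -2.38 ± 0.17 and -1.64 ± 0.15 for Idh3a, -2.04 ± 0.25 and -1.31 ± 0.16 for Ogdh, and -1.72 ± 0.16 and -0.99 ± 0.15 for Pdha1. All 3 were higher in kidney than in liver in 8 of 8 mice as deposited.

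Cs was lower in liver as deposited in LD (-1.54 ± 0.30, adjusted p from limma 0.000357) and ADV (-1.17 ± 0.30, adjusted p 0.00332), and after rescaling in LD (-0.73 ± 0.20, adjusted p 0.00523) but not past the threshold in ADV (-0.44 ± 0.20, adjusted p 0.074), where it did pass with A115 left out (-0.73, adjusted p 4.97e-06). Its kidney level was below its liver level in A115 only. Dlst and Mdh2 were called lower as deposited (-0.94 ± 0.21 and -0.91 ± 0.35 in LD, -1.03 ± 0.21 and -0.94 ± 0.35 in ADV) but not after rescaling all 16 libraries (-0.12 ± 0.14 and -0.10 ± 0.24 in LD, -0.29 ± 0.14 and -0.21 ± 0.24 in ADV). Rescaled without A115, both were called lower in ADV (Dlst -0.43, adjusted p from limma 0.00669, and Mdh2 -0.54, adjusted p 0.000389). The deposited call of Mdh2 was lost in LD when any of L63, L65, L86 or L104 was left out (adjusted p from limma 0.0905, 0.0733, 0.107 and 0.0901), and in ADV without A75, A91 or A94 (differences -0.64, -0.83 and -0.87). Without A115 it was -1.43 in ADV.

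Suclg1 and Suclg2 changed sign with the scaling. As deposited they were called lower in liver, with differences of -0.74 ± 0.21 and -0.53 ± 0.12 in LD and -0.64 ± 0.21 and -0.38 ± 0.12 in ADV, and after rescaling they were at 0.0702 ± 0.17 and 0.28 ± 0.15 in LD and 0.0901 ± 0.17 and 0.36 ± 0.15 in ADV, with no call. Rescaled without A115, Suclg2 was called higher in liver in ADV (0.49, adjusted p from limma 0.00756) and Suclg1 was at 0.0331. In ADV the deposited call of Suclg1 was lost without A75, A91 or A94 (-0.59, -0.58 and -0.55) and that of Suclg2 without A75 (-0.32). Fh1 was the member placed highest in liver. Its deposited difference was 0.29 ± 0.13 in LD (adjusted p from limma 0.0662, and 0.0226 without A115 and 0.0428 without L63) and 0.0181 ± 0.13 in ADV, and after rescaling it was called higher in liver in LD (1.11 ± 0.20, adjusted p 0.000162) and ADV (0.75 ± 0.20, adjusted p 0.0043). Dlst, Suclg1 and Suclg2 were higher in kidney in 8 of 8 mice as deposited, Cs and Mdh2 in 7 and Fh1 in 2. Without A115 the deposited ADV differences were -2.59 for Idh3a, -2.41 for Ogdh, -1.81 for Pdha1, -1.62 for Cs and -1.32 for Dlst. Those of Suclg1, Suclg2 and Fh1 were -0.86, -0.40 and 0.13, and 8 of 9 members were again called lower in liver, where 78.2% of 14975 genes were called, 10017 of them lower.

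**Figure D4:**
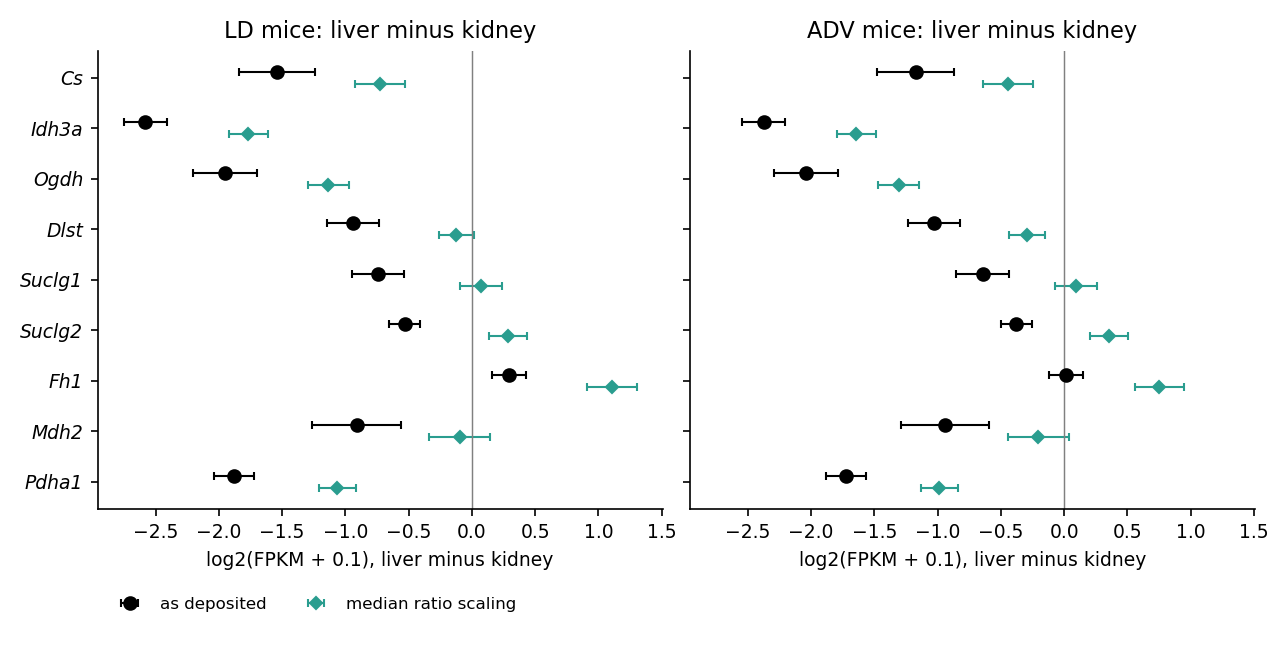
Difference between liver and kidney (liver minus kidney) for each member in LD (left) and ADV mice (right) on the log2(FPKM + 0.1) scale, with SE. Black circles are the deposited values and green diamonds the values after median ratio scaling. All 9 members shift to the right with the scaling, and 6 of them, Idh3a, Ogdh, Pdha1, Cs, Dlst and Mdh2, stay below 0 in both panels while Fh1 lies at 1.11 and 0.75.

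Whether ADV acted differently in the organs was asked by the difference of the differences. No member passed the test (limma, 0 of 9), and no gene in all did (0%; 556 at an unadjusted p under 0.05). The members' values, liver minus kidney, ran from -0.27 ± 0.19 (Fh1) to 0.37 ± 0.43 (Cs), with a median of 0.10 against 0.13 over all genes. Without A115 the median was -0.11 against -0.0577 over all genes and still 0 of 9 passed, while 2.74% of all genes did. The values then ran from -0.52 (Mdh2) to 0.13 (Suclg2), with Ogdh at -0.47, Dlst at -0.39, Fh1 at -0.16 and Cs at -0.0754.

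Ratios of 2 genes within a library do not depend on how the library was scaled, and 5 such ratios of a member to a partner were compared, between organs by exact sign changes over the 8 mice and between conditions by exact permutation of 4 against 4 mice (two-sided, p adjusted over 18 comparisons). Pdha1 and Pdhb encode the alpha and beta subunits of the E1 component of pyruvate dehydrogenase. Their FPKM ratio was 0.659, 0.759, 0.817 and 0.785 in the LD livers and 0.784, 0.699, 0.693 and 0.775 in the ADV livers, and 1.78, 1.83, 1.89 and 1.95 in the LD and 1.74, 2.01, 1.72 and 1.59 in the ADV kidneys. Every liver was below 1 and every kidney above. The log2 ratio, liver minus kidney, was -1.28 ± 0.15 (SD, n = 8 mice, exact permutation p = 0.00781, adjusted 0.0352). ADV and LD differed in it by -0.0318 (exact p = 0.771, adjusted 0.868) in liver and -0.0824 (exact p = 0.343, adjusted 0.561) in kidney.

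Idh3a and Idh3b are subunits of the same dehydrogenase. Their ratio was 0.178, 0.149, 0.121 and 0.155 in the LD and 0.161, 0.153, 0.221 and 0.271 in the ADV livers, and 0.469, 0.491, 0.532 and 0.507 in the LD and 0.427, 0.471, 0.483 and 0.665 in the ADV kidneys. All livers lay below all kidneys, with A115 highest in each organ. The log2 ratio, liver minus kidney, was -1.55 ± 0.31 (SD, n = 8 mice, exact permutation p = 0.00781, adjusted 0.0352), and ADV minus LD was 0.39 (exact p = 0.171, adjusted 0.343) in liver. Ogdh and Dlst are successive components of oxoglutarate dehydrogenase. Their ratio was 0.314, 0.337, 0.466 and 0.373 in the LD and 0.325, 0.270, 0.348 and 0.331 in the ADV livers, and 0.763, 0.745, 0.769 and 0.692 in the LD and 0.692, 0.646, 0.661 and 0.569 in the ADV kidneys. The organs did not overlap, and the log2 ratio, liver minus kidney, was -1.01 ± 0.21 (SD, n = 8 mice, exact permutation p = 0.00781, adjusted 0.0352). In kidney the 4 ADV mice lay below the 4 LD mice, with A75 and L104 nearly equal, and the difference was -0.21 (exact p = 0.0286, adjusted 0.0857), which is the smallest p 4 against 4 mice can give and fails the adjustment. Without A115 it was -0.16.

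The ratio of Suclg2 to Sucla2, the GTP- and ATP-specific beta subunits of succinyl-CoA ligase, was 1.07 to 1.43 in LD livers, 1.04 to 1.42 in ADV livers and 1.01 to 1.22 in LD kidneys. The ADV kidneys had 1.26, 1.14, 1.01 and 0.460, so that A115 alone was under 1. The log2 ratio, liver minus kidney, was 0.29 ± 0.46 (SD, n = 8 mice, exact permutation p = 0.0781, adjusted 0.176), with 6 of 8 mice above 0. Pdha1 to Pdk4, a kinase that inactivates pyruvate dehydrogenase, varied most: 46.9, 39.4, 10.4 and 30.4 in the LD livers and 18.5, 26.6, 8.38 and 19.2 in the LD kidneys, with L86 lowest in both organs. The ADV livers had 22.0, 35.2, 36.0 and 25.4 and the ADV kidneys 20.7, 44.2, 37.6 and 10.5. The organs overlapped, and the log2 ratio, liver minus kidney, was 0.48 ± 0.60 (SD, n = 8 mice, exact permutation p = 0.0625, adjusted 0.161). The conditions overlapped too, with differences of 0.0690 (exact p = 0.914, adjusted 0.943) in liver and 0.55 (exact p = 0.4, adjusted 0.6) in kidney. Without A115 the organ differences above that passed the adjustment were -1.32 for Pdha1/Pdhb, -1.59 for Idh3a/Idh3b and -1.05 for Ogdh/Dlst.

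**Figure D5:**
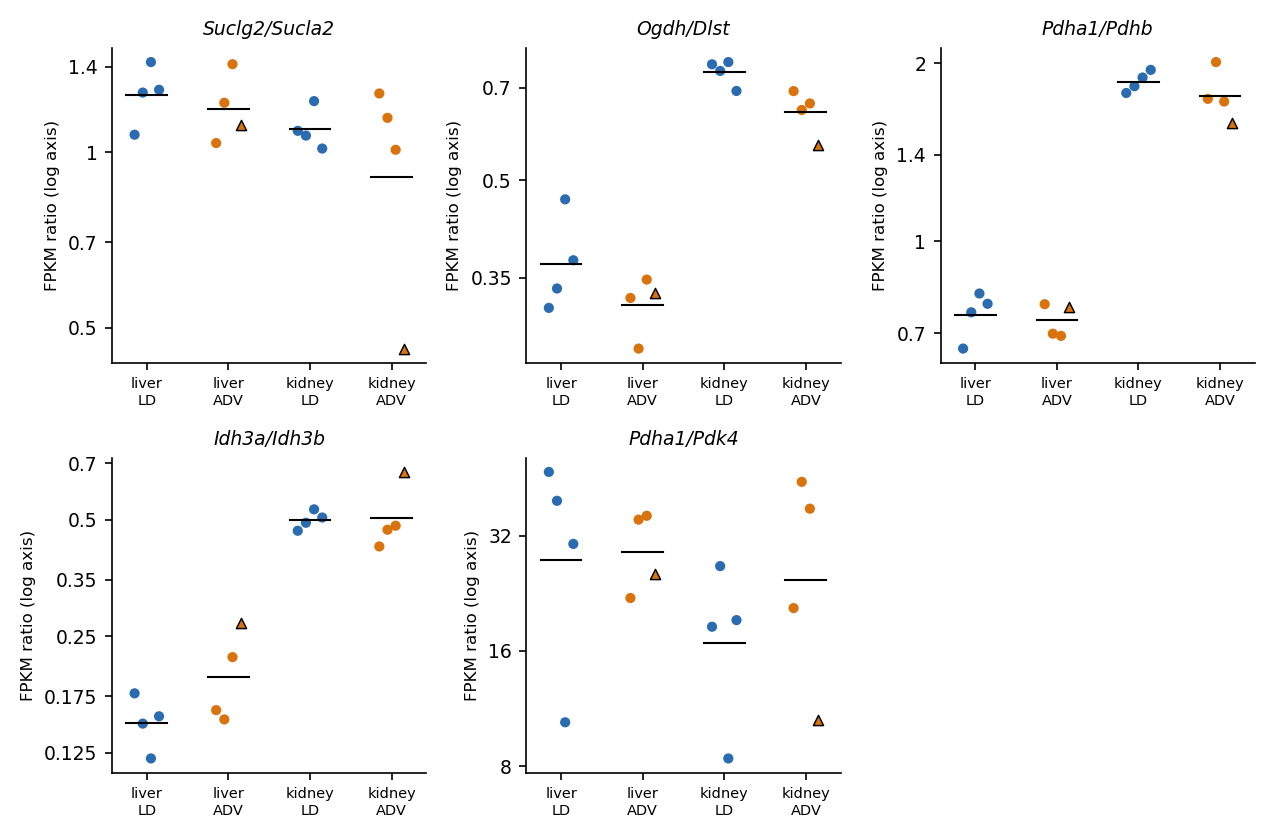
FPKM ratio of a member to its partner in each library (log axis), by organ and condition. Blue points are LD mice, orange points ADV mice, the outlined triangle is A115 and lines are geometric means. Pdha1/Pdhb is below 1 in all livers and above 1 in all kidneys.

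Other genes of the cycle and of the pyruvate dehydrogenase system were compared between ADV and LD in the same way: of 10 other cycle enzymes tested in liver and 11 in kidney, and of 12 genes of the pyruvate dehydrogenase complex, its regulators and the pyruvate carrier in each organ, 0 passed the test. Their medians were -0.13 and -0.11 for the cycle enzymes in liver and kidney and -0.078 and -0.21 for the pyruvate dehydrogenase list. The smallest p in liver belonged to Pdk1, a pyruvate dehydrogenase kinase (30.7 ± 3.76 FPKM in LD, 20.3 ± 4.64 in ADV, SD, n = 4; -0.61 ± 0.16, adjusted p from limma 0.296), and Pdpr, the phosphatase regulatory subunit (-0.49 ± 0.14, adjusted p 0.301), followed among those named by Idh3b, the partner of Idh3a (-0.28 ± 0.10, adjusted p 0.382). In kidney they were Pdpr (-0.66 ± 0.26) and Pdk3, a kinase (-0.35 ± 0.17), and Dld (-0.21 ± 0.22) and Idh3g, the gamma subunit of isocitrate dehydrogenase (-0.27 ± 0.34), all at an adjusted p from limma of 1. Without A115, where 18.8% of all kidney genes were called, 2 of the 11 cycle enzymes were called higher in ADV and 1 of the 12 pyruvate dehydrogenase genes lower. Named after their values were seen, these were the succinate dehydrogenase subunits Sdhc (0.38 ± 0.0845) and Sdhd (0.61 ± 0.10), and Pdk3 (-0.50 ± 0.0886). The values of Pdpr, Dld and Idh3g were then -0.59 ± 0.25, -0.39 ± 0.14 and 0.0890 ± 0.11. With median ratio scaling as well, where 1203 of 14475 genes were called higher and 1115 lower, the calls were Sdhd (0.42 ± 0.11), higher, and Pdk3 (-0.69 ± 0.12) and Pdk4 (-1.24 ± 0.32), lower in ADV.

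Between the organs in LD, 9 of 11 other cycle enzymes and 8 of 12 pyruvate dehydrogenase genes were called lower in liver and 0 and 1 higher as deposited, and after median ratio scaling the counts were 4 lower and 1 higher, and 5 lower and 3 higher. Of all 14968 genes, 55.5% were called lower and 11.1% higher as deposited, and 4519 lower and 3700 higher after rescaling. Idh3g (-2.57 ± 0.26, rescaled -1.76 ± 0.18) and Ogdhl, a paralogue of Ogdh at 1.10 ± 0.217 FPKM in kidney and 0.0111 to 0.0239 in liver (-3.33 ± 0.28, rescaled -2.91 ± 0.22), were lower in liver on both scales. The liver values of Ogdhl lay below the 0.1 added before taking logs, so the size of its difference depends on that addition. Dld was lower as deposited (-1.50 ± 0.18), with -0.68 ± 0.28 after rescaling (adjusted p from limma 0.0502). Dlat, the E2 component of pyruvate dehydrogenase (-2.14 ± 0.14, rescaled -1.33 ± 0.21), the kinase Pdk3 (-5.83 ± 0.44, rescaled -5.12 ± 0.44) and the phosphatase Pdp1 (-2.57 ± 0.20, rescaled -1.88 ± 0.25) were lower in liver on both scales, and the kinase Pdk1 was higher (1.79 ± 0.18, rescaled 2.60 ± 0.18). Chosen after their values were seen, further genes called after rescaling were Idh2 (-1.33 ± 0.33), Pdk2 (-0.78 ± 0.30) and Pdk4 (-1.81 ± 0.47), lower in liver, and the succinate dehydrogenase subunit Sdhd (1.02 ± 0.27) and the pyruvate carrier subunits Mpc1 (0.66 ± 0.20) and Mpc2 (0.69 ± 0.27), higher in liver.

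Across the 16 libraries, centred on each organ's mean, the genes whose log2 level followed the mean of the 9 members most closely were Uqcrc1 (Pearson's r = 0.99), Atp5b (0.98), Mllt1 (0.98), Poldip2 (0.98) and Trak1 (0.98). These values describe points that share a library and its scaling, and A115 weighs heavily in them. Over the 7 other kidneys r was 0.89, 0.50, 0.76, 0.54 and -0.13, and over the 8 livers 0.95, 0.92, 0.95, 0.95 and 0.90. Among the 36 pairs of members the median r was 0.85 over the 8 kidneys and -0.12 over the 7 without A115, and 0.31 over the 8 livers. Mdh2 followed the members' mean most closely over the 16 libraries (r = 0.97) and Fh1 least (r = 0.0380).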

How the data were processed

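Liver and kidney RNA of 8 mice was sequenced (16 libraries, 4 mice per condition and organ). The authors trimmed the reads, aligned them to mm10 with STAR 2.5.4b and counted exons of UCSC known canonical genes with HOMER, and the deposited values are FPKM per library, scaled to its total with no further normalization between libraries. Fragments recovered from FPKM, length and total came out in steps of 0.5 in 100% of values (within 0.05 of a step). Groups and mouse numbers were taken from the labels.

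Differences were fitted with limma 3.58.1 (R 4.3.3, trend) on log2(FPKM + 0.1), after a filter at a mean FPKM times exon kilobases above 0.5, with Benjamini-Hochberg adjustment over all genes and a threshold of 0.05. Each organ was fitted apart for ADV against LD, and both in 1 fit of 4 groups for the organs. Exact permutation tests used scipy 1.17.1. Members and gene lists were chosen with earlier results of these data known. All 9 members were named, and of each other pathway list up to 4 genes with the smallest p among those called, or the 2 with the smallest p, plus the 5 genes most correlated with the members' mean. Partner genes of the ratios were named as such. Pcx, Idh2, Pdk2, Sdhc, Sdhd, Mpc1, Mpc2, Tfam, Lipt1, Esrra, Slc25a1 and Slc25a11 were named after their values were seen. The mouse numbers pair the organs: deviations of liver and kidney of the same mouse correlated from -0.024 to 0.55 over 12319 genes, above 0.1 in 5 of 8 mice. A further planned ratio, counted in the adjustment over 18 comparisons, is not reported here. Alternatives were another pseudocount, filter, scaling or total, limma-voom on recovered fragments, a joint fit of the organs, a replicate block for the mouse, and leaving out each mouse. Leaving out A94 and A115, and the block without A115, were chosen after seeing the data. The script was tested on simulated data.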

Additional observations from a re-analysis of the deposited data

Results flagged for a closer look

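In 2 of 60 groups of 4 libraries or ratios examined, 1 sample lay far from the other 3, where chance alone gives about 1 in 20, or 3. Both were the kidney of ADV mouse A115. Cs was at 28.2 FPKM there against 92.3 in the nearest other ADV kidney, and Suclg1 was at 93.99 FPKM against 193 in the nearest.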

How the results depend on the processing

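ADV against LD called 0 of 9 members in either organ under every alternative run, namely pseudocounts of 0.5 and 1, no filter or a mean FPKM above 1, median ratio scaling, totals without mitochondrial genes, limma-voom on recovered fragments, a joint fit of the organs and leaving out each mouse. Of the members' values over all comparisons and alternatives, 761 kept their direction and side of the threshold, 50 changed sign, 8 passed the threshold newly and 18 no longer did. With the mouse as a replicate block, 8 members in LD, 8 in ADV and 0 for the difference of the ADV effects were called, as without the block. Median ratio scaling left 5 called between organs in LD and 4 in ADV, with Suclg1 and Suclg2 at 0.0702 and 0.28 in LD and 0.0901 and 0.36 in ADV, and by its own construction it shifts all genes of a library alike. Totals without mitochondrial genes put Fh1 at 0.0010 for ADV against LD in kidney and at -0.12 between organs in ADV. With median ratio scaling and A115 left out, 5 members were called in LD and 8 in ADV, Idh3a in liver was -0.0851, Cs, Dlst and Mdh2 in kidney were 0.0634, 0.0313 and 0.15, Suclg1 and Suclg2 between organs were 0.0631 and 0.28 in LD and 0.0331 and 0.49 in ADV, and the median difference of the ADV effects, that of Suclg1, was -0.0300. Leaving out A94 and A115, chosen after seeing the data, put Idh3a in liver at -0.17, and in kidney the median, that of Idh3a, at 0.0418, Cs at 0.27, Ogdh at 0.14, Dlst at 0.29, Suclg1 at 0.0277 and Mdh2 at 0.37. The difference of the ADV effects then had a median, that of Idh3a, of -0.21, with Cs at -0.23 and Suclg1 at -0.0764. The replicate block without A115, also chosen after seeing the data, gave a median, that of Suclg1, of -0.11, Cs -0.0754 and Idh3a -0.0100.

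Leaving out each mouse in turn gave ranges that crossed 0 for ADV against LD of -0.000124 to 0.25 for Idh3a in liver, and in kidney of -0.32 to 0.0147 for the members' median, -0.35 to 0.25 for Cs, -0.15 to 0.0147 for Idh3a, -0.44 to 0.0670 for Ogdh, -0.19 to 0.22 for Dlst, -0.37 to 0.0142 for Suclg1, -0.0340 to 0.0300 for Fh1 and -0.40 to 0.35 for Mdh2. For Fh1 between organs in ADV the range was -0.0772 to 0.13. For the difference of the ADV effects it was -0.11 to 0.21 for the median, -0.0754 to 0.60 for Cs, -0.0100 to 0.40 for Idh3a, -0.47 to 0.17 for Ogdh, -0.39 to 0.15 for Dlst, -0.11 to 0.20 for Suclg1 and -0.52 to 0.27 for Mdh2. Members called between organs in ADV ranged from 5 to 8, the lowest without A75. Log2 ratios, ADV against LD, ranged from -0.12 to 0.0941 for Idh3a/Idh3b in kidney, -0.10 to 0.00758 for Pdha1/Pdhb in liver, -0.40 to 0.32 for Pdha1/Pdk4 in liver, -0.44 to 0.0494 for Suclg2/Sucla2 in kidney and -0.25 to -0.16 for Ogdh/Dlst in kidney. Between organs, Pdha1/Pdk4 ran from 0.36 to 0.60 and Suclg2/Sucla2 from 0.15 to 0.38. At least 566 fragments stood behind each member's value.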

Other observations

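Genes around the cycle also differed between the organs. Of 19 genes of anaplerosis, cytosolic counterparts and mitochondrial carriers, 7 were called lower and 6 higher in liver than in kidney in LD as deposited, and 5 lower and 9 higher after median ratio scaling. Over all 14968 genes it was 55.5% lower and 11.1% higher as deposited, and 4519 lower and 3700 higher after that scaling. Gpt2, a mitochondrial alanine aminotransferase (2.66 ± 0.25, rescaled 3.47 ± 0.18), and Glud1, glutamate dehydrogenase (1.18 ± 0.14, rescaled 1.99 ± 0.18), were higher in liver on both scales. Me3, a mitochondrial malic enzyme (-5.50 ± 0.40, rescaled -5.01 ± 0.33), and Slc25a12, an aspartate-glutamate carrier (-2.32 ± 0.21, rescaled -1.51 ± 0.14), were lower in liver on both. In ADV 7 of the 19 were lower and 5 higher as deposited, against 51.7% and 11.2% of all genes. For ADV against LD, 0 of 18 tested in liver and 0 of 19 in kidney passed the test (limma), with 1 in each organ at an unadjusted p under 0.05. That gene was Pck1, which makes phosphoenolpyruvate from oxaloacetate, at -0.61 ± 0.17 in liver (adjusted p from limma 0.299) and -0.75 ± 0.24 in kidney (adjusted p 1). Without A115, where 18.8% of all kidney genes were called, 6 of the 19 were called higher in ADV kidneys and 1, Pck1 (-0.55 ± 0.16), lower. With median ratio scaling as well, Pck1 (-0.74 ± 0.18) was called lower, and, named after their values were seen, the citrate carrier Slc25a1 (0.38 ± 0.0912) and the oxoglutarate carrier Slc25a11 (0.41 ± 0.10) higher.

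Of 7 regulators of mitochondrial biogenesis, 3 were called lower in liver in LD as deposited and 1 lower and 1 higher after rescaling, the latter Tfam (0.56 ± 0.20), which packages mitochondrial DNA. All 14968 genes gave 55.5% lower and 11.1% higher as deposited, and 4519 lower and 3700 higher after rescaling. Ppargc1a, a coactivator of mitochondrial genes, was lower on both scales (-3.63 ± 0.20, rescaled -2.84 ± 0.27), and Gabpa (-0.48 ± 0.16, rescaled 0.33 ± 0.25) and Nrf1 (-0.75 ± 0.25, rescaled 0.0331 ± 0.17), transcription factors of such genes, only as deposited. Of the 3 lipoate attachment genes, which modify Dlst and Dlat, Lias (-0.64 ± 0.13, rescaled 0.17 ± 0.14) was called lower in liver as deposited, and Lipt1 was called higher after rescaling (0.61 ± 0.18). For ADV against LD, 0 of 7 and 0 of 3 passed the test (limma) in either organ, and 0 of them had an unadjusted p under 0.05. Without A115, 1 of the 7 regulators and 0 of the 3 lipoate genes were called in kidney. Named after its values were seen, this was Esrra, the oestrogen-related receptor alpha, at 1.501 ± 0.18 (adjusted p from limma 0.0107), and at 1.31 ± 0.18 with median ratio scaling as well (adjusted p 0.0196), where again no other gene of these lists was called. With all 8 mice it was 0.28 ± 1.06, and its liver minus kidney difference in ADV was -0.97 ± 0.81, or -2.22 without A115.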
